A study of Mus musculus with 6 samples.

Results

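Compact myelin is the tightly wound membrane that Schwann cells lay around axons, and 7 genes that code for its proteins or for relatives of them are described here in sciatic nerve of mice at postnatal day 14. They were picked by symbol from count tables that list 24015 genes each, and all 7 were found: Pmp22, Mal, Cd9, Mbp, Pmp2, Mpzl1 and Mpzl2. RNA-Seq was done on 3 control and 3 Rnf40ΔSC libraries, each made from a pool of 3 nerves. Controls carried the floxed alleles alone (Rnf40 fl/fl), and Rnf40ΔSC nerves carried the same alleles with a Dhh::Cre transgene (Dhh::Cre, Rnf40 fl/fl). The labels give a mixed 129SvJ/C57Bl/6J background for both groups, whereas the methods of the study name a mixed C3H × C57Bl/6J background. No control with the Cre transgene and unfloxed Rnf40 was sequenced. Recombination takes out exons 3 and 4 of Rnf40 in cells of the Schwann cell lineage, while the RNA came from whole nerve with its fibroblasts, vessels, perineurium and immune cells.

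In compact myelin the extracellular faces of neighbouring membrane turns are held together by adhesive transmembrane proteins, and the cytoplasmic faces are drawn together by small basic proteins. Pmp22 codes for a tetraspan glycoprotein whose gene dosage causes the inherited neuropathies Charcot-Marie-Tooth disease type 1A (duplication) and hereditary neuropathy with liability to pressure palsies (deletion). Rnf40 codes for a ubiquitin ligase subunit that acts with Rnf20 to place monoubiquitin on histone H2B, a mark found over transcribed genes. The comparison asks how the messages of these proteins differ when Schwann cells lack Rnf40.

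The tables held 1317167, 1992622 and 2468765 counted reads in control libraries 1, 2 and 3, and 2184268, 1459387 and 2186710 in Rnf40ΔSC libraries 1, 2 and 3. At these depths 1 read stands for 0.405 to 0.759 CPM, that is, counts in a library scaled to 1000000 reads. Normalized counts below are reads scaled by edgeR's TMM factors to the mean library size. Rnf40 itself had 130.2, 126 and 142 normalized counts in controls and 90.2, 90.4 and 94.2 in the Rnf40ΔSC libraries. All 3 Rnf40ΔSC libraries lay below all 3 controls, in the direction of their labels, at 68.8% of the control level (edgeR log2 fold change -0.54, SE 0.14, adjusted p 0.00242). Counts per gene do not show how many of these reads came from the floxed exons or from cells outside the Schwann cell lineage.

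Skeletal muscle genes divided the Rnf40ΔSC libraries. The 12 skeletal muscle genes listed as markers, Myh4 the most abundant, summed to 3656, 2638 and 2017 CPM in the control libraries, to 88.8 and 238 CPM in Rnf40ΔSC libraries 1 and 2, and to 3205 CPM in Rnf40ΔSC library 3, which lay within the range of the controls. With all libraries, edgeR's quasi-likelihood test put 0 of the 12 past an adjusted p of 0.05, and 0 of them had an unadjusted p under 0.05; DESeq2 also passed 0. Without Rnf40ΔSC library 3, 11 of the 12 passed in edgeR, all lower. Values without that library are therefore given beside those of the members. Leaving it out makes the groups differ more in muscle reads, so those values are not matched for muscle.

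The tetraspan membrane proteins come before the others because they hold most of the reads. Pmp22 lies at chr11:62942484-62973049 on the plus strand of mm9, and its message starts at alternative first exons. The promoter table of RefSeq (GRCm38.p6) matched 4 of the 7 genes, Pmp22, Mal, Cd9 and Mpzl1, with 7 start sites, of which Pmp22 has 4. The windows below are shown because Pmp22 and Mal differ between the genotypes in the opposite direction to Mpzl1. Each runs for 300 bases, 5′ to 3′ on the gene's own strand, and the table is of GRCm38.p6, so its positions are not those of mm9: chr11:63128732-63129031 and chr11:63131207-63131506 (plus strand) for the Pmp22 starts farthest upstream, chr2:127656646-127656945 (minus strand) for Mal and chr1:165634492-165634791 (minus strand) for Mpzl1. Capitals mark CCAAT, or ATTGG where the motif is on the other strand.
Pmp22 start 1: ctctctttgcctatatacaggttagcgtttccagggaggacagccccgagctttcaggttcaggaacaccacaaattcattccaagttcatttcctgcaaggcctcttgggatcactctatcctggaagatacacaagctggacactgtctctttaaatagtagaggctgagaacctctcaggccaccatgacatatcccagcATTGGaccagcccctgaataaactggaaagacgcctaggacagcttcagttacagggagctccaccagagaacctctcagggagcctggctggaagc
Pmp22 start 2: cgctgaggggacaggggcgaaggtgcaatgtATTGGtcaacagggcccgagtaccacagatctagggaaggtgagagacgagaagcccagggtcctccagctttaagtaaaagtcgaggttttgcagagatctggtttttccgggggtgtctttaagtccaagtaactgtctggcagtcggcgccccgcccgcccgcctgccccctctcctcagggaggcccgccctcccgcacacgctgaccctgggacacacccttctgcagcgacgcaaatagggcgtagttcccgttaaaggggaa
Mal start 1: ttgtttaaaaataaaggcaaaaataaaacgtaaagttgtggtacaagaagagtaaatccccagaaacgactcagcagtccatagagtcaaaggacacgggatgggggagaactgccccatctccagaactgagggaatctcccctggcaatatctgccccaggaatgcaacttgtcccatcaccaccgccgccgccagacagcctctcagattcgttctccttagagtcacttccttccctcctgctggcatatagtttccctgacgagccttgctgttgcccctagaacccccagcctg
Mpzl1 start 1: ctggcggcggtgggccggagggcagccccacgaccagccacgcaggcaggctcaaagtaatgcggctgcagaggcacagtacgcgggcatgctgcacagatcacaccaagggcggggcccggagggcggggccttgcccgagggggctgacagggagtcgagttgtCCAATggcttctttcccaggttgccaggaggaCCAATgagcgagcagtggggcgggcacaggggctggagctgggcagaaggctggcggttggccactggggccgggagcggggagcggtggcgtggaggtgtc

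Each of the 7 windows was searched on both strands for GTGGGCG (part of the consensus of the EGR factors), ACAAAG (a core of SOX sites), CCAAT and TATAAA, which do not overlap in these windows. CCAAT was present once in Pmp22 start 1 and once in Pmp22 start 2, at bases 204 to 208 and 32 to 36, and at bases 167 to 171 and 199 to 203 of the Mpzl1 window. It occurs in 37.4% of the 32851 promoters of the table. The other 3 motifs, present in 7.97% (GTGGGCG), 18.7% (ACAAAG) and 13.6% (TATAAA) of all promoters, had no match in the 7 windows. The G and C content was 50.7%, 60%, 66.3% and 72.3% in Pmp22 starts 1 to 4, 51% in Mal, 61.3% in Cd9 and 70% in Mpzl1, against a median of 52.7% over the table, so the Pmp22 starts span the values of the other genes. A match or its absence describes these letters alone.

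Pmp22 had 85423.5, 95361 and 91119.9 normalized counts in control libraries 1, 2 and 3 and 21924, 21026 and 18968.5 in Rnf40ΔSC libraries 1, 2 and 3. The groups did not overlap, and the highest Rnf40ΔSC library was far under the lowest control. The log2 fold change was -2.13 (SE 0.065, 95% interval -2.27 to -2.00, edgeR adjusted p 6.86e-25), which leaves 22.8% of the control level. Pmp22 ranked 2 among all 24015 genes by read count in each control library and 4 in each Rnf40ΔSC library. In whole nerve, fewer cells of a type and less RNA per cell cannot be told apart, for this gene and for those that follow. Without Rnf40ΔSC library 3 the log2 fold change was -2.07.

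Mal codes for a tetraspan proteolipid of myelin and of apical transport vesicles. It had 8649, 10506 and 9867 normalized counts in controls and 3171, 3179 and 3039 in the Rnf40ΔSC libraries. The Rnf40ΔSC libraries were close to each other (SD 78.5 about a mean of 3130.0) and all below the controls. The log2 fold change was -1.63 (SE 0.077, edgeR adjusted p 2.82e-19), or 32.3% of the control level, and it was -1.60 without Rnf40ΔSC library 3. Its rank by read count was 12 in each control library and 31 to 35 in the Rnf40ΔSC libraries.

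Cd9 codes for a tetraspanin that binds integrins and immunoglobulin-type partners and is made by many cell types besides Schwann cells. Its normalized counts were 4837, 5216 and 5412 in controls and 3361, 3289 and 2715 in the Rnf40ΔSC libraries, again without overlap, with Rnf40ΔSC library 3 the lowest. The log2 fold change was -0.72 (SE 0.081, 95% interval -0.89 to -0.56, edgeR adjusted p 4.66e-09), which is 60.5% of the control level. It was -0.62 without Rnf40ΔSC library 3. A gene is called lower or higher here when its adjusted p is at most 0.05, its log2 fold change at least 0.8 in size and its mean normalized count at least 20. Cd9 passed the test and missed the limit on size.

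The cytoplasmic proteins follow. Mbp, at chr18:82644538-82755029 on the plus strand of mm9, codes for the basic proteins that join the cytoplasmic faces. Counts per gene do not separate its classic transcripts from the Golli transcripts of the same locus. Mbp had 47382, 52814 and 51210.4 normalized counts in controls and 17453, 15492 and 16107 in the Rnf40ΔSC libraries. The groups were far apart, with a log2 fold change of -1.63 (SE 0.066, edgeR adjusted p 3.94e-21), 32.4% of the control level. It was -1.61 without Rnf40ΔSC library 3. By read count it ranked 3 or 4 in controls and 7 in each Rnf40ΔSC library.

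Pmp2 codes for a fatty acid binding protein of the cytoplasmic face of peripheral myelin. It had 3536, 2868 and 2655 normalized counts in controls and 404, 501 and 329 in the Rnf40ΔSC libraries. Its log2 fold change of -2.88 was the lowest of the 7 genes, with the widest spread (SE 0.18, 95% interval -3.30 to -2.47, edgeR adjusted p 8.43e-06). The level in Rnf40ΔSC nerve was 13.6% of control. Pmp2 ranked 39 to 51 by read count in controls and 513 to 927 in the Rnf40ΔSC libraries. Without Rnf40ΔSC library 3, the lowest of its group, the log2 fold change was -2.73.

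Mpzl1 and Mpzl2 code for single-pass membrane proteins with an immunoglobulin-type domain. They are grouped with compact myelin by protein family: Mpzl1 is a widely made receptor that binds the phosphatase Ptpn11, and Mpzl2 is an adhesion protein of epithelia and thymus. Mpzl1 had 143, 166 and 136 normalized counts in controls and 347, 311 and 333 in the Rnf40ΔSC libraries. All 3 Rnf40ΔSC libraries lay above all controls, in the opposite direction to the other 6 genes. The log2 fold change was 1.16 (SE 0.11, 95% interval 0.94 to 1.38, edgeR adjusted p 7.67e-11), or 2.23 times the control level, and 1.17 without Rnf40ΔSC library 3.

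Mpzl2 was the scarcest of the 7, with raw counts between 62 and 128. Its normalized counts were 98.4, 139 and 101 in controls and 75.3, 74.7 and 55.1 in the Rnf40ΔSC libraries. The lowest control and the highest Rnf40ΔSC library were close, but did not overlap. The log2 fold change of -0.74 (SE 0.17, 95% interval -1.08 to -0.40, edgeR adjusted p 0.000711) passed the test and missed the limit on size. Single libraries decide that call: the log2 fold change reached -0.81 without control library 1, -0.83 without control library 3 and -0.82 without Rnf40ΔSC library 1, each past the limit, and was -0.56 without control library 2 and -0.58 without Rnf40ΔSC library 3.

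**Figure D1:**
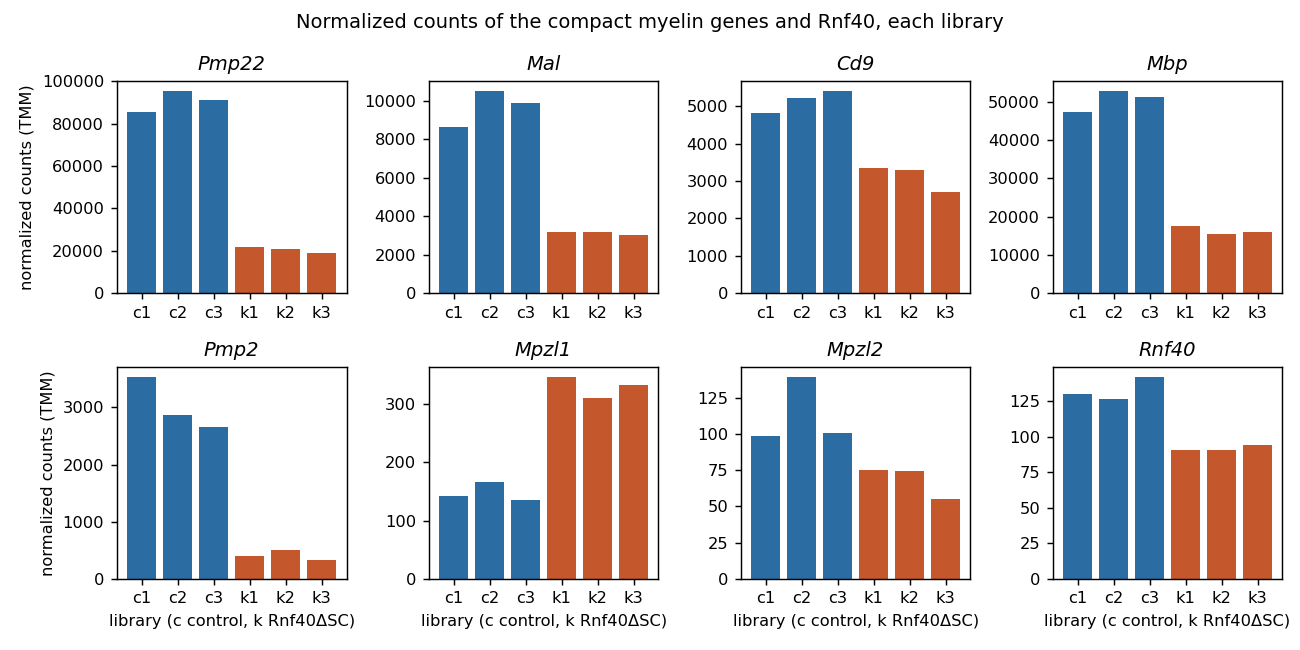
Normalized counts (edgeR TMM) of the 7 genes and of Rnf40 in each library, control in blue (c1 to c3) and Rnf40ΔSC in orange (k1 to k3), each panel with its own axis from 0. Pmp22 falls from between 85423.5 and 95361 to between 18968.5 and 21924, and Mpzl1 is the gene with higher bars in Rnf40ΔSC nerve.

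All 7 genes passed the filter on low counts, and 11371 genes in all were tested. Of the members, 4 were called lower (Pmp22, Mal, Mbp and Pmp2), where 574 of all genes tested, 5.05%, were called lower. Another 1, Mpzl1, was called higher, beside 424 genes or 3.73% of all tested. By the adjusted p alone 6 members were lower and 1 higher, while 16.2% of all genes (1841) were lower and 15.4% (1756) higher. Non-overlap in the same directions, 6 members below and 1 above, compares with 21.6% of all genes (2451) below and 22% (2497) above. The median log2 fold change of the 7 was -1.63 and that of all genes tested was -0.0026. These members were selected by name with earlier results known, so their counts describe the list and test nothing.

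Scaling moves every one of these values by a like amount. With total counts in place of TMM factors the median log2 fold change of all genes moved to 0.27, so each value below is read against that shift. Under that scaling 20.5% of all calls were lower, against 57.5% with TMM. The 7 genes kept their directions: Pmp22 had a log2 fold change of -1.87, Mal -1.36, Cd9 -0.46, Mbp -1.36, Pmp2 -2.62, Mpzl1 1.43 and Mpzl2 -0.47. Rnf40 had a log2 fold change of -0.27 with total counts, beside -0.54 with TMM. Medians of the gene lists also moved up with total counts. With the 7 genes left out of the TMM factors and of the library sizes, the members' values differed from the main ones by less than their standard errors.

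**Figure D2:**
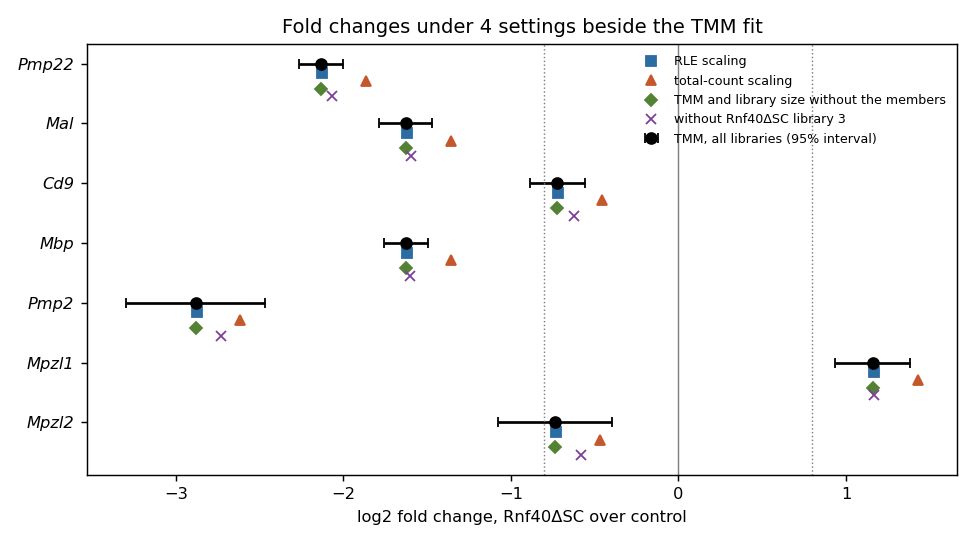
Log2 fold change of each gene, Rnf40ΔSC over control, with the 95% interval of the edgeR fit (black) and the value under other scalings and without Rnf40ΔSC library 3; dotted lines mark a size of 0.8. Total-count scaling moves each point to the right, Cd9 from -0.72 to -0.46 and Mpzl1 from 1.16 to 1.43, with no change of side.

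The share of the library shows how much of the nerve's counted RNA these messages took up. Together the 7 genes held 7.18%, 7.69% and 7.55% of all counted reads in controls and 2.58%, 2.49% and 2.38% in the Rnf40ΔSC libraries. The mean share fell by 4.99 percentage points, from 7.47% ± 0.27 (SD, n = 3) to 2.49% ± 0.10 (SD, n = 3). Pmp22 alone held 4.08%, 4.39% and 4.29% in controls and 1.21%, 1.20% and 1.09% in the Rnf40ΔSC libraries, so that its mean share fell by 3.09 points. The mean share of Mbp fell by 1.45 points, from 2.37% to 0.923%, and that of Mal fell by 0.277 points, from 0.454% to 0.177%. The smaller shares were 0.142% and 0.0232% for Pmp2, 0.242% and 0.176% for Cd9, 0.00695% and 0.0186% for Mpzl1 and 0.00529% and 0.00386% for Mpzl2, control mean before Rnf40ΔSC mean. For each of the 7 genes the exact two-sided permutation test of the share gave p = 0.1, the smallest value that 3 against 3 libraries allow, so no share could pass a limit of 0.05. Shares are not corrected for the change in the rest of the library.

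**Figure D3:**
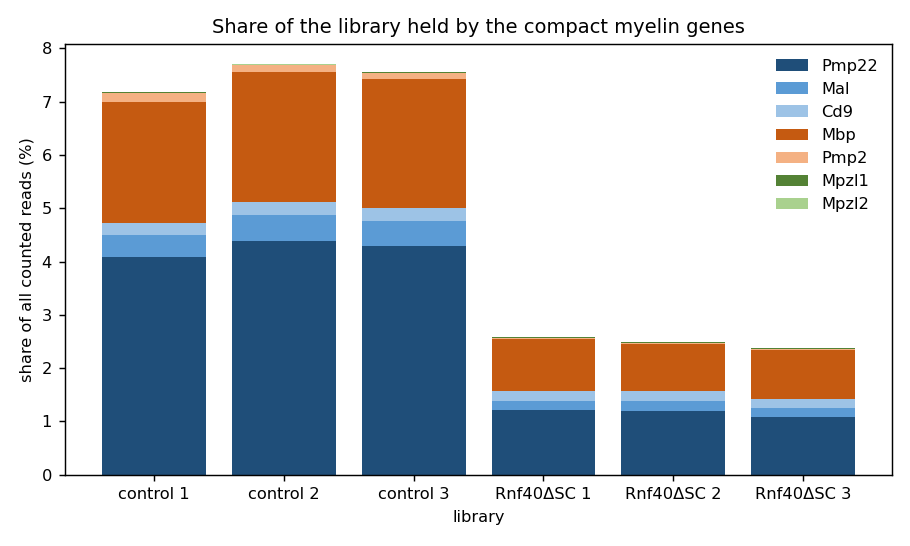
Share of all counted reads (percent) held by the 7 genes, stacked by gene, in each library. Control bars reach 7.18% to 7.69% and Rnf40ΔSC bars 2.38% to 2.58%, and Pmp22 with Mbp fill most of each bar.

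Within the reads of the 7 genes the mixture also differed. Pmp22 made up 56.9% of them in the control libraries on average and 46.8% in the Rnf40ΔSC libraries. Mbp rose in this mixture from 31.7% to 37.1%, Mal from 6.07% to 7.12% and Cd9 from 3.24% to 7.07%, while Pmp2 went from 1.91% to 0.933%. These are parts of a sum that fell, and a part that rose had a lower CPM all the same, except for Mpzl1.

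Ratios to Pmp22 inside a library need no scaling factor. For each 100 Pmp22 reads there were 55.5, 55.4 and 56.2 Mbp reads in controls and 79.6, 73.7 and 84.9 in the Rnf40ΔSC libraries. The control libraries agree to within 1 read, and all Rnf40ΔSC libraries lie above them. The log2 ratio of Mbp to Pmp22 was 0.51 higher in Rnf40ΔSC nerve, and that of Mal was also 0.51 higher, from 10.7 to 15.2 Mal reads for each 100 of Pmp22. For Cd9 the difference was 1.41, from 5.69 to 15.1 reads. Pmp2 went the other way: 4.14, 3.01 and 2.91 reads for each 100 of Pmp22 in the control libraries became 1.84, 2.38 and 1.73, a log2 difference of -0.75. Mpzl1 (log2 difference 3.29) and Mpzl2 (1.42) rose relative to Pmp22, and for Mpzl2 this is a smaller loss and no gain in CPM. No ratio of the 6 overlapped between the groups, 5 being higher and 1 lower in Rnf40ΔSC libraries. Since Pmp22 fell so far, 97.4% of the 11370 other genes tested (11077) also had all Rnf40ΔSC ratios above all controls, with a median log2 difference of 2.13, and 0.193% (22) had them all below. The differences of Mbp, Mal, Cd9 and Mpzl2 lie between 0, the value of a gene that moves as Pmp22 does, and that median, and Pmp2 is among the 90 genes with a difference below 0. Each of the 6 exact two-sided permutation tests gave p = 0.1, the smallest possible.

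**Figure D4:**
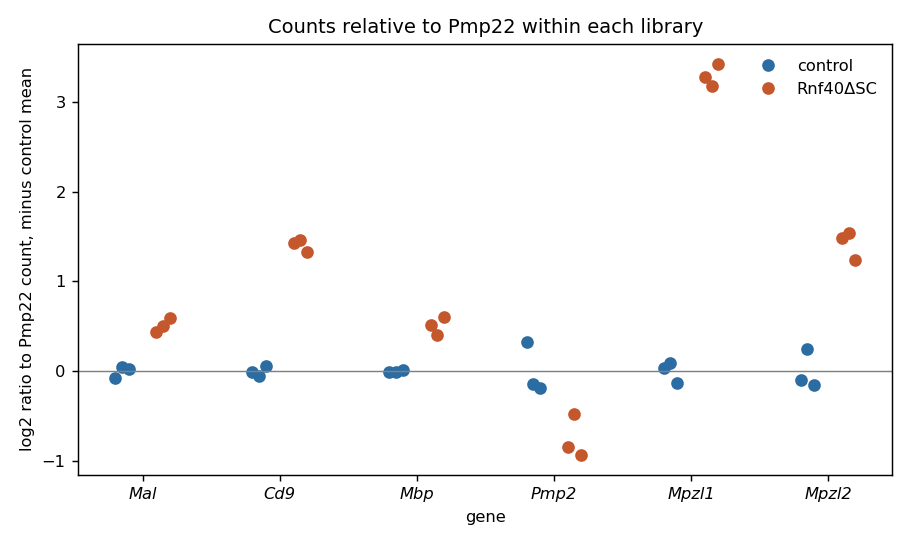
Log2 ratio of each gene's count to the Pmp22 count in the same library, minus the control mean, for 3 control (blue) and 3 Rnf40ΔSC (orange) libraries. Mal and Mbp shift by 0.51, Cd9 by 1.41, and Pmp2 is the gene that moves down, by a difference of -0.75.

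Levels of different genes can be set side by side only per length. In CPM per kilobase of exon (union of exons in the mm9 annotation GENCODE vM1), the control means were 18075 for Pmp22, 2819.6 for Mbp, 1634 for Mal, 1184 for Cd9, 1041 for Pmp2, 29.5 for Mpzl1 and 17.0 for Mpzl2. In that order Cd9 and Pmp2 overlap between control libraries, and the other neighbours do not. The Rnf40ΔSC means were 4949 for Pmp22, 1098 for Mbp, 862 for Cd9, 636 for Mal, 170.3 for Pmp2, 79.1 for Mpzl1 and 12.4 for Mpzl2, with no overlap between neighbours. The exchange of places between Mal and Cd9 depends on the length used: per kilobase of the longest transcript Cd9 (1971) stood above Mal (1634) in control nerve too. Distances between genes depend on it as well. With that length Mbp had means of 4939 in control and 1924 in Rnf40ΔSC nerve, and Pmp22 had 23353 and 6394. In that annotation the spans of Mbp and Cd9 each overlap 1 other gene, Rpl21-ps8 and Gm16749, and the other 5 members overlap none. No reads were found under either name, as would also be so if the counting did not list them.

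Other genes of the myelin sheath give a frame for the members. The list has 16 genes of compact myelin, its junctions and its outer surface, and all 16 were tested. By the adjusted p, 15 were lower and 9 of these were called lower. The polarity gene Mpp5 had a log2 fold change of 0.39 and passed narrowly as higher (edgeR adjusted p 0.0423); it passed without Rnf40ΔSC library 3, but not with any of the other 5 libraries left out (adjusted p up to 0.136), and DESeq2 passed 0 of the list as higher. Their median log2 fold change was -1.15, beside -1.63 for the 7 members and -0.0026 for all genes tested. The called genes with the smallest p were Drp2 (-2.18), Cldn19 (-1.95), Ncmap (-2.01), Prx (-1.59) and Cadm4 (-1.72), each with an edgeR adjusted p of 5.08e-17 or less. Drp2 and Prx belong to the complex that anchors the outer Schwann cell membrane, Cldn19 seals the mesaxons and paranodal loops, Ncmap codes for a small membrane protein of non-compact myelin, and Cadm4 binds axonal partners at the internode. These log2 fold changes, -1.59 to -2.18, lie beside -1.63 for Mal and -2.13 for Pmp22. Prx, the most abundant of the list, went from 12007 ± 337 (SD, n = 3) to 3981 ± 105 (SD, n = 3) normalized counts.

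**Figure D5:**
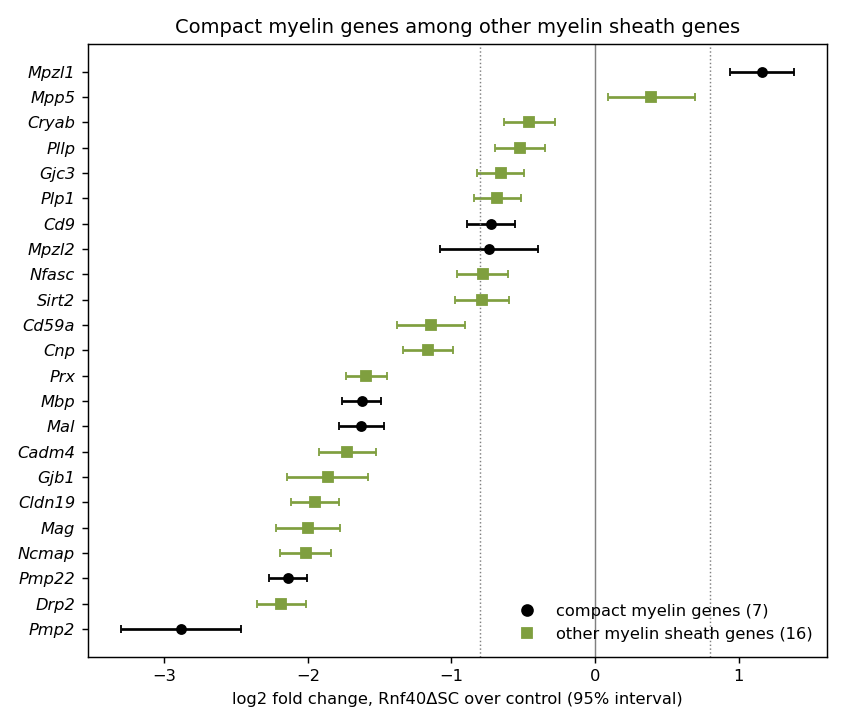
Log2 fold change with 95% interval (edgeR) of the 7 members (black circles) and of 16 other myelin sheath genes (green squares), sorted; dotted lines mark a size of 0.8. Pmp2 at -2.88 and Mpzl1 at 1.16 are the ends of the row, and Cd9 and Mpzl2 sit among the sheath genes that miss the limit on size.

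Family relatives were listed for Pmp22, Mal, Pmp2 and Cd9. In the family of Pmp22 and the epithelial membrane proteins, 5 of 6 listed relatives were tested: Tmem47 was called higher (log2 fold change 1.74, edgeR adjusted p 2.83e-16), from 173 to 577 normalized counts, and Emp1 (-0.48) and Emp2 (-0.75) passed the test in the other direction without reaching the limit on size. Emp2 reached it without control library 1. Tmem47, a claudin-like tetraspan protein of cell junctions, was higher in all 3 Rnf40ΔSC libraries than in any control, the opposite of Pmp22. The family median was -0.48, and no tested member of it changed sign with total-count scaling.

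Among 13 relatives of Mal with the MARVEL fold, 10 were tested, and by the adjusted p 6 were lower and 2 higher (1 higher without Rnf40ΔSC library 1 or 3, where Mal2 was not tested). Pllp is 1 of the 6 and also 1 of the 15 lower genes of the myelin sheath list. Cmtm5 was called lower, from 275 to 59.3 normalized counts (log2 fold change -2.23, edgeR adjusted p 5.76e-16). Marveld3, which codes for a tight junction protein, was called higher with few reads: raw counts of 6, 4 and 3 in controls and 43, 34 and 52 in the Rnf40ΔSC libraries (log2 fold change 2.98, edgeR adjusted p 4.22e-08). Leaving out Rnf40ΔSC library 1, 2 or 3 takes its mean count under 20 and so ends the call, while its adjusted p was at most 3.07e-05 with any library left out. The family median was -0.46, and Cmtm3 alone changed sign with total counts.

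For Pmp2, 4 of 14 relatives among the fatty acid and retinoid binding proteins had enough reads to test. Crabp1, a retinoic acid binding protein, was called higher, with raw counts of 0, 4 and 4 in controls and 83, 47 and 101 in the Rnf40ΔSC libraries (log2 fold change 4.50, SE 0.36, edgeR adjusted p 9.38e-13). The size of that fold change rests on 8 control reads. Fabp4, the most abundant of the family and a marker of adipocytes, had a log2 fold change of -0.43 and an adjusted p of 0.33 and overlapped between the groups. No other gene of this family passed the test.

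Of 26 other tetraspanins, relatives of Cd9, 20 were tested, with 4 lower and 5 higher by the adjusted p and a median log2 fold change of -0.01. The 5 higher became 2 without control library 3 or Rnf40ΔSC library 2, and 3 without control library 2 or Rnf40ΔSC library 1, and DESeq2 passed 2 lower and 3 higher. Tspan13 (1.17, edgeR adjusted p 4.05e-10) and Tspan7 (1.01, edgeR adjusted p 1.27e-07) were called higher, and the most abundant, Cd81, had a log2 fold change of -0.01. With total-count scaling 4 of the 20 (Cd81, Cd53, Tspan3 and Tspan17) went from below to above 0, and Tspan13 and Tspan7 did not change direction. Without Rnf40ΔSC library 3, Tspan11 was called lower.

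Genes for 7 proteins that bind members' proteins were listed as well, together with Mpzl3, a relative of Mpzl1 and Mpzl2. All 7 partners were tested, and Mpzl3, with 0 to 3 reads a library, was not. Itgb4, a laminin receptor chain of Schwann cells that binds Pmp22 protein with its partner chain Itga6, was called lower (log2 fold change -1.69, edgeR adjusted p 4.77e-16), from 897 to 277 normalized counts. Itga6, the most abundant partner, was higher by the adjusted p with a log2 fold change of 0.50. Itga3 was called lower on few reads (-1.03, edgeR adjusted p 0.00142), and with total counts its value was -0.76, under the limit on size. Ptpn11, the partner of Mpzl1, had a log2 fold change of 0.03 and an adjusted p of 0.90. Of the 5 partners below 0 with TMM, 3 (Ptgfrn, Igsf8 and Itgb1) were above 0 with total counts.

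The genes most like the members were sought by the root mean square difference, over the 6 libraries, between a gene's log2 CPM centred on the control mean and the mean profile of Pmp22, Mbp, Pmp2 and Mal. Among genes with a mean normalized count of at least 20, those near the profile included Elovl6 (difference 0.0503), 5930403L14Rik (0.0867), Ncmap (0.0935) and Drp2 (0.107). Pmp22 itself lay at 0.0624, Mbp and Mal at 0.322 and 0.323, and Pmp2 at 0.603, since the profile is their mean. Elovl6 codes for a fatty acid elongase and had a log2 fold change of -2.12, from 1717 to 397 normalized counts. Cd9 and Mpzl2 lay farther off, at 0.948 and 0.977, and Mpzl1 at 2.28. The profile was made from the members called lower, so the greater distance of Cd9, Mpzl2 and Mpzl1 was set by that choice.

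Markers of the Schwann cell lineage, the cells that make compact myelin in nerve, were also read. The 8 markers found summed to 1620, 1760 and 1711 CPM in controls and 1537, 1556 and 1588 CPM in the Rnf40ΔSC libraries. By the adjusted p 5 were lower and 2 higher, with a median log2 fold change of -0.51; without control library 3 only 1 was higher. Sox10, the most abundant, had 1032 ± 66.1 (SD, n = 3) normalized counts in control and 598 ± 28.3 (SD, n = 3) in Rnf40ΔSC nerve, a log2 fold change of -0.79 (edgeR adjusted p 8.80e-09). That is 58.0% of control, beside 22.8% for Pmp22, 32.4% for Mbp and 60.5% for Cd9. Markers of this list did not move together. Foxd3 was called higher, at 187% of control, though not without control library 1 or Rnf40ΔSC library 2. Dhh stood at 114% of control without passing the test (edgeR adjusted p 0.125), so Sox10 alone does not measure Schwann cell content. The gene for the myelination factor Egr2 was higher by the adjusted p (log2 fold change 0.36, edgeR adjusted p 0.00579), but not without control library 3 (adjusted p 0.087). The 6 markers of non-myelinating Schwann cells, Ncam1 the most abundant, summed to 648 to 710.5 CPM in control and 654 to 740.0 CPM in Rnf40ΔSC libraries, with a median log2 fold change of -0.60. Of these, 3 were lower, L1cam (-1.87), Scn7a (-1.86) and Ngfr (-0.90), and 2 were higher (1 without control library 3 or in DESeq2), so the sum holds opposite changes, with Ncam1 at 1.16. The part of cell composition in the members' values was not tested.

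Mbp and Mal are also genes of oligodendrocytes. Of 8 oligodendrocyte markers, Mobp the most abundant, none had enough reads to test; they summed to 5.31 to 9.32 CPM in control and 1.83 to 7.54 CPM in Rnf40ΔSC libraries. Olig1 and Olig2 had 0 reads in all 6 libraries, where a count of 0 allows up to 1.22 to 2.28 CPM. The same libraries held 12854 to 59495 Mbp reads. The part of oligodendrocyte RNA in the Mbp and Mal values was not tested.

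Markers of other cells of the nerve had medians nearer to 0 than that of the 7 members. List sums below are CPM of all counted reads, and genes passing the test do so by edgeR's adjusted p. With total counts the medians were -0.05 for fibroblast, -0.21 for endothelial and -0.27 for pericyte and smooth muscle markers. Those of macrophage and adipocyte markers were -0.19 and -0.39, and that of the 7 members was -1.36. For the Schwann cell lineage and non-myelinating Schwann cell lists they were -0.24 and -0.33. The 8 fibroblast markers, Col3a1 the most abundant, summed to 48047 to 53129 CPM in controls and 43464 to 44345 CPM in Rnf40ΔSC libraries; 7 were lower, with a median log2 fold change of -0.32, and 2 of these, Dcn and Fbn1, were just above 0 with total counts. The 6 perineurial markers, led by Tjp1, summed to 1153 to 1232 CPM in controls and 1040.2 to 1195 CPM in Rnf40ΔSC libraries; 3 of the 5 tested were lower and 1 higher, and 1 of the 3 is Itgb4, which is made by Schwann cells and counted among the partners too. Endothelial markers (8, led by Cdh5) went from 602 to 696 CPM to 527 to 641 CPM, with 4 lower and a median of -0.47, and Emcn changed sign with total counts.

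Pericyte and smooth muscle markers (6, led by Pdgfrb) summed to 625 to 883 CPM in controls and 540 to 694 CPM in Rnf40ΔSC libraries, with 4 lower and a median of -0.54. Macrophage markers (8 tested, led by Csf1r) summed to 367 to 442 CPM and 334 to 348 CPM, with a median of -0.46. Of these, 6 were lower (3 in DESeq2, and 4 to 6 with a library left out), and Cx3cr1 changed sign with total counts. Aif1, the gene for Iba1, had 0 to 3 reads a library and was not tested. The study's stainings found Iba1-positive cells more frequent in Rnf40ΔSC nerve at this age, so these sums do not give macrophage numbers. Adipocyte markers (8, led by Fabp4) overlapped between the groups in their sum, 1312 to 2353 CPM and 1345 to 1570.3 CPM, with 3 lower and a median of -0.66; Retn changed sign with total counts. Of 8 neuronal markers, led by Nefh, 4 were tested and Snap25 was higher in edgeR (0 in DESeq2), and without Rnf40ΔSC library 1 another 1 was lower. Among red blood cell markers Alas2 alone had reads to test and passed only without Rnf40ΔSC library 3, while the globin genes had 0 reads. Only uniquely mapped reads were counted per the methods, so these counts of 0 do not show that red blood cell RNA was absent. The part of fibroblast, vessel, fat, muscle or immune cell RNA in the members' values was not tested. The skeletal muscle median was -1.27 with all libraries and -4.25 without Rnf40ΔSC library 3, while without that library Pmp22 had a log2 fold change of -2.07 and Mpzl1 of 1.17, beside -2.13 and 1.16 with it.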

How the data were processed

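The values are raw read counts per gene that the authors deposited, 1 table per library, made per the methods by aligning reads to mm9 with TopHat2 and counting them with HTSeq. The labels list mm9 and mm10 and Bowtie2; they and the methods name different library kits, and the annotation and strand setting of the counting are not given, so antisense reads cannot be told apart. Counts were fitted in edgeR 4.0.16 (R 4.3.3; filterByExpr, TMM factors, robust quasi-likelihood F test), with Benjamini-Hochberg adjustment over the 11371 genes tested; standard errors are the log2 fold change over the square root of F. Calls needed an adjusted p of at most 0.05, a log2 fold change of at least 0.8 in size and a mean normalized count of at least 20. DESeq2 1.42.0 served as an alternative. The fits were tested on simulated data. Shares of all counted reads and log2 ratios to Pmp22 (0.5 reads added to each) were compared by exact two-sided permutation of the libraries. Genes were named as the 7 members, Rnf40, called genes with the smallest p in each list of relatives (at most 5 a list), the most abundant or defining gene of each cell type list, and the 5 genes most like the members; other genes, such as Emp2, Itga6, Mpp5, Egr2, Tspan11 and those that changed sign with total counts, were named after their values were seen. Genes that the rule names and that are missing from the text are not reported here. Members and lists were chosen with earlier results of these data known. Alternatives are other scalings, tests, filters, denominators, prior counts and gene lengths, a replicate block and each library left out.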

Additional observations from a re-analysis of the deposited data

How the results depend on the processing

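Of 290 alternative values computed for the members' fold changes, shares, ratios to Pmp22, counts of calls and order per kilobase, 286 kept their direction and side of the test's limit (for counts, stayed within 1.5 times; for the order per kilobase, which has no test, moved by less than the SD between libraries). Shares and ratios to Pmp22 could not change side, because their permutation tests cannot reach the limit with so few libraries. Their differences with the replicate block equal the main ones by construction, so these values show nothing about stability. Without control library 2 the difference in the share of Mpzl2 went from -0.0014 to -0.00087 percentage points. The exceptions included the numbers of all genes called with total-count scaling: 263 lower and 1020 higher, against 574 and 424; the median of all genes moves with that scaling. The others are log2 ratios of Cd9 to Mal per kilobase: with the longest transcript as length the control value went from -0.46 to 0.27 and the Rnf40ΔSC value from 0.44 to 1.17, since the length of Cd9 is then shorter. The 4 members called lower became 5 without control library 1, control library 3 or Rnf40ΔSC library 1, each time with Mpzl2. With each library left out in turn, log2 fold changes lay from -2.18 to -2.07 for Pmp22, -1.67 to -1.58 for Mbp, -3.04 to -2.73 for Pmp2, -1.70 to -1.57 for Mal, -0.77 to -0.62 for Cd9, 1.09 to 1.25 for Mpzl1 and -0.83 to -0.56 for Mpzl2, all with an edgeR adjusted p of 0.0301 or less.

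Replicate numbers are shared by the groups, and the labels do not say that they mark litters or days. Deviations from the group means had correlations of -0.095, -0.015 and -0.062 for libraries with the same number, so the numbers were not taken as pairs. With the replicate block edgeR called 573 genes lower and 416 higher, and 4 members lower and 1 higher; Pmp22 had a log2 fold change of -2.14, and no member's call changed. No library correlated best with its own number.

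Shares without mitochondrially encoded genes could not be computed, as the tables list none. Depth limits Mpzl2, with 62 to 128 reads a library. The permutation tests cannot go below 0.1 with 3 libraries a group.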
